A study of Mus musculus with 18 samples.

Results

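The 7 genes described here encode the neutrophil-attracting CXC chemokines Cxcl1, Cxcl2, Cxcl3, Cxcl5 and Ppbp, their receptor Cxcr2, and Pf4, a platelet chemokine encoded in the same cluster. They were picked by name from the 19752 genes with a probe set of their own, and each was read by 1 probe set. A gene was tested when its log2 intensity exceeded the array's 30th percentile (the dim-gene threshold below) on at least 2 arrays, which 15365 genes and 6 of the 7 did; Cxcl5 passed it on 1 of 18 arrays and was not tested.

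Chemokines are small secreted proteins that guide migrating leukocytes along a gradient. Members of the CXC class that carry a glutamate-leucine-arginine (ELR) motif bind Cxcr2 on neutrophils and draw them from blood into tissue. Myeloid cells make Cxcl1, Cxcl2 and Cxcl3 quickly after inflammatory stimuli through NF-kB, and their short-lived mRNAs are controlled by AU-rich elements. Ppbp (the precursor of CXCL7) and Pf4 are best known from platelets and megakaryocytes, and Pf4 lacks the ELR motif.

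The study concerns how RAF, MEK and ERK signalling changes dendritic cell migration, as in Langerhans cell histiocytosis. In the BRAF mice a floxed BRAFV600E allele is switched on by Cre under the CD11c promoter, which is active in dendritic cells and in some macrophages. The WT littermates carry the floxed allele too but no Cre. For each genotype there were 3 arrays of live CD11c+CD11b+ bone-marrow-derived dendritic cells (BMDC, untreated cultures from femurs of mice aged 5 weeks), and 2 arrays each of CD11b+ cells from liver, and of CD11b+ and CD103+ cells from lung, sorted from unmanipulated mice aged 14 weeks, 18 arrays in 8 groups. Beyond these markers no gate is given for the organ cells. Since the labels leave it unsaid whether replicates are separate animals or cultures, p-values cover the spread between arrays alone, and part of it may be technical.

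The defining integrins matched the labels of the lung and BMDC samples. Itgae, which encodes CD103, had a log2 mean of 11.22 in BRAF and 11.80 in WT lung CD103+ cells and of 5.85 to 7.31 in the other 6 groups. Itgam (CD11b) had 8.30 in BRAF and 6.89 in WT lung CD103+ cells, and 9.81 to 11.31 elsewhere. The log2 interquartile range, a measure of contrast on an array, was narrow on 2 arrays, BRAF BMDC replicate 2 (1.9) and WT liver replicate 3 (1.92), against 2.41 to 2.99 on the other arrays. Summed intensity of 20 neutrophil markers spanned 3105 to 16092 in BRAF and 1877 to 1987 in WT liver, 5488 to 8792 and 2235 to 2326 in BRAF and WT lung CD11b+, 2809 to 7257 and 1047 to 2214 in BRAF and WT lung CD103+, and 5200 to 6883 and 4361 to 4953 in BRAF and WT BMDC. Ly6g, the defining neutrophil surface marker, exceeded the dim-gene threshold on 3 BRAF arrays (1 each of BMDC, liver and lung CD11b+) and on 0 WT arrays.

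All 6 ligand genes lie on chromosome 5 and Cxcr2 on chromosome 1. The windows from 250 bases before to 50 bases after the start of 6 members were found in RefSeq's promoter table (build GRCm38.p6); Cxcl5 is named only. The first 3 windows below are shown because they share 1 motif, and Ppbp because its gene was called in BMDC, as Cxcl3 was. They were chosen with the results below known, and the part of any motif in those results was not tested. They are Cxcl1 at chr5:90890995-90891294, Cxcl2 at chr5:90903649-90903948, Cxcl3 at chr5:90785851-90786150 and Ppbp at chr5:90768268-90768567, all on the plus strand. Capitals mark a motif bound by the NF-kB subunit RelA, GGAATTTCC (the kB letters), in Cxcl1, Cxcl2 and Cxcl3. In Ppbp they mark TGANTCA, a loose form of the AP-1 motif with any base in the middle, matched there by TGAATCA.
Cxcl1: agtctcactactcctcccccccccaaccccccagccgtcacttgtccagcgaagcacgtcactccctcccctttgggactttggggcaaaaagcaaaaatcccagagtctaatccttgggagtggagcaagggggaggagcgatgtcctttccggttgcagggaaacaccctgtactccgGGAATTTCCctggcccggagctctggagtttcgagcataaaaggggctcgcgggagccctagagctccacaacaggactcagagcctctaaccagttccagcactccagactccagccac
Cxcl2: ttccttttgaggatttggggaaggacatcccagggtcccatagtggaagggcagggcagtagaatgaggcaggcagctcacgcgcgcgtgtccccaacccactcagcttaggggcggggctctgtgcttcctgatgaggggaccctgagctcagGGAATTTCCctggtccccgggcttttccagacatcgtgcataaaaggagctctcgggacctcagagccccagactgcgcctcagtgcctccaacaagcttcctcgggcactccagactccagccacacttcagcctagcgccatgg
Cxcl3: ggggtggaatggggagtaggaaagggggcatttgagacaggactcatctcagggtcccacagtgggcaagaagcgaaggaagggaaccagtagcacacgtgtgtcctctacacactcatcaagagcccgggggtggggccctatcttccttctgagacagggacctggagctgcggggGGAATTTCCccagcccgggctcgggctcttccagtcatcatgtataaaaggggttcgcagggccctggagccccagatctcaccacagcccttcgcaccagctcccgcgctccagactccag
Ppbp: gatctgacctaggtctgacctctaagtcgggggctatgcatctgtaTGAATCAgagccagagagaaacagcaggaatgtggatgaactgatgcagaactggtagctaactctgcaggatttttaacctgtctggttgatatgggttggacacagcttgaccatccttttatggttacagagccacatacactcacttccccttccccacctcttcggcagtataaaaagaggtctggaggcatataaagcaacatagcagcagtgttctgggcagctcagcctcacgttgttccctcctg

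Both strands of every window were searched for the 2 motifs and for the GATA-factor motif AGATAA, and no matches overlapped each other. The kB letters began at -70 in Cxcl1, -96 in Cxcl2 and -72 in Cxcl3, counted from the start of the gene, and stood in 104 of 32851 windows of the same length, or 0.317%. TGANTCA stood in 7.808% of windows and, among the members, in Ppbp at -204. AGATAA stood in 11.178% of windows and, among the members, in Pf4 at 37 bases after the start. None of the 3 was in the Cxcr2 window, which says only that these letters are absent from it. After alignment, 60.3% of positions were identical between the Cxcl2 and Cxcl3 windows, 55.8% between Cxcl1 and Cxcl2, and 44.8% to 55.5% for all other pairs.

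In BMDC, Cxcl3 and Ppbp were higher in BRAF than in WT cells, by 3.05-fold and 3.45-fold, and both passed the test. Cxcl2 had the widest gap of the 7 genes, 4.60-fold, with no overlap between genotypes, but did not pass in the fit over all arrays. Cxcr2 was lower on every BRAF array and did not pass. Of the 6 tested members 2 were called, that is, had a Benjamini-Hochberg adjusted p under 0.05 in limma over all 15365 genes, against a background of 0.521% of all genes called in this comparison (0.332% in the higher direction).

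Cxcl3, an ELR ligand of Cxcr2, had log2 intensities of 7.76, 7.50 and 8.26 in BRAF BMDC (replicates 1 to 3, as in all lists of 3 below), against 6.08, 6.19 and 6.42 in WT BMDC. Every BRAF value stood above every WT value, as it did for 6.99% of all genes tested. The log2 difference was 1.61 ± 0.25 (SE, limma), with an adjusted p of 0.00822. Leaving out WT replicate 1 gave 1.53 with limma's adjusted p at 0.0619, and leaving out WT replicate 2 gave 1.59 with 0.0573. Fitting the BMDC arrays alone ended the Cxcl3 call as well, with limma's adjusted p at 0.0503.

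Ppbp, whose product is cut to the ELR chemokine CXCL7, had 9.36, 8.96 and 9.34 in BRAF BMDC and 7.22, 7.23 and 7.84 in WT BMDC. The genotypes did not overlap, as for 6.99% of all genes in that direction. Outside BMDC only WT lung CD11b+ replicate 3, at 7.78, exceeded the lowest of these values. The log2 difference was 1.79 ± 0.32 (SE, limma, adjusted p = 0.0185). The call was lost without WT replicate 1, WT replicate 2, BRAF replicate 1 or BRAF replicate 3, where limma's adjusted p was 0.131, 0.120, 0.101 and 0.0702, while the difference stayed between 1.68 and 1.99 over all arrays left out in turn. Of 18 listed platelet and megakaryocyte markers 13 were matched and 11 tested, and 0 of the 11 were called in BMDC. Their log2 differences were positive for 7 and negative for 4, with a median of 0.13. Itgb3 (0.57), Treml1 (0.40), Clec1b (0.36) and Itga2b (0.29) stood wholly higher in BRAF, as did 6.99% of all genes, and 0 stood wholly lower. The 4 negative ones, Vwf (-0.31), F2rl2 (-0.20), Tubb1 (-0.15) and Thbs1 (-0.11), overlapped between genotypes. The summed intensity, to which Thbs1 and F2rl2 gave most, spanned 4531 to 7552 in BRAF and 5847 to 7370 in WT BMDC, and Clec1b, Gng11 and Trpc6 exceeded the dim-gene threshold on no BMDC array. The part of platelet RNA in the Ppbp values was not tested.

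Cxcl2, the mouse chemokine also called MIP-2, had 8.84, 8.50 and 8.93 in BRAF BMDC and 6.71, 6.50 and 6.46 in WT BMDC. The lowest BRAF array stood well clear of the highest WT array, and 6.99% of all genes had no overlap in that direction. The log2 difference was 2.20 ± 0.73 (SE, limma) and the adjusted p was 0.444. The fit shares 1 spread per gene over all arrays, and for Cxcl2 the SD within groups was 0.185 in BMDC and 1.38 in the organ populations, 7.46 times as large. In the fit of only the BMDC arrays, which called 0.286% of all genes, limma's adjusted p for Cxcl2 was 0.00412. With array weights in the fit of all arrays it was 0.000625, but 10.8% of all genes were then called.

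Cxcl1, also an ELR ligand, had 7.004, 7.49 and 7.09 in BRAF BMDC and 6.95, 7.04 and 7.04 in WT BMDC. The genotypes overlapped, and the high BRAF value came from the array of narrow range. The log2 difference was 0.19 ± 0.33 (SE, limma, adjusted p = 0.829). Pf4 had 9.68, 8.44 and 9.99 in BRAF BMDC and 8.51, 8.55 and 9.23 in WT BMDC. BRAF replicate 2 lay below all WT arrays and the other 2 BRAF arrays above them, with a log2 difference of 0.61 ± 0.60 (SE, limma, adjusted p = 0.750). With array weights, which gave that replicate a weight of 0.11, the Pf4 difference was 1.13 and limma's adjusted p 0.0215, again beside 10.8% of all genes called.

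Cxcl5 was dim throughout. Its log2 intensity was 5.09, 6.15 and 4.97 in BRAF BMDC and 4.93, 4.98 and 5.09 in WT BMDC. The value of 6.15, on the narrow-range array, was the only 1 of 18 above the dim-gene threshold. Elsewhere Cxcl5 spanned 4.95 to 5.78 on the 6 BRAF arrays and 4.86 to 5.63 on the 6 WT arrays of the organ populations.

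**Figure D1:**
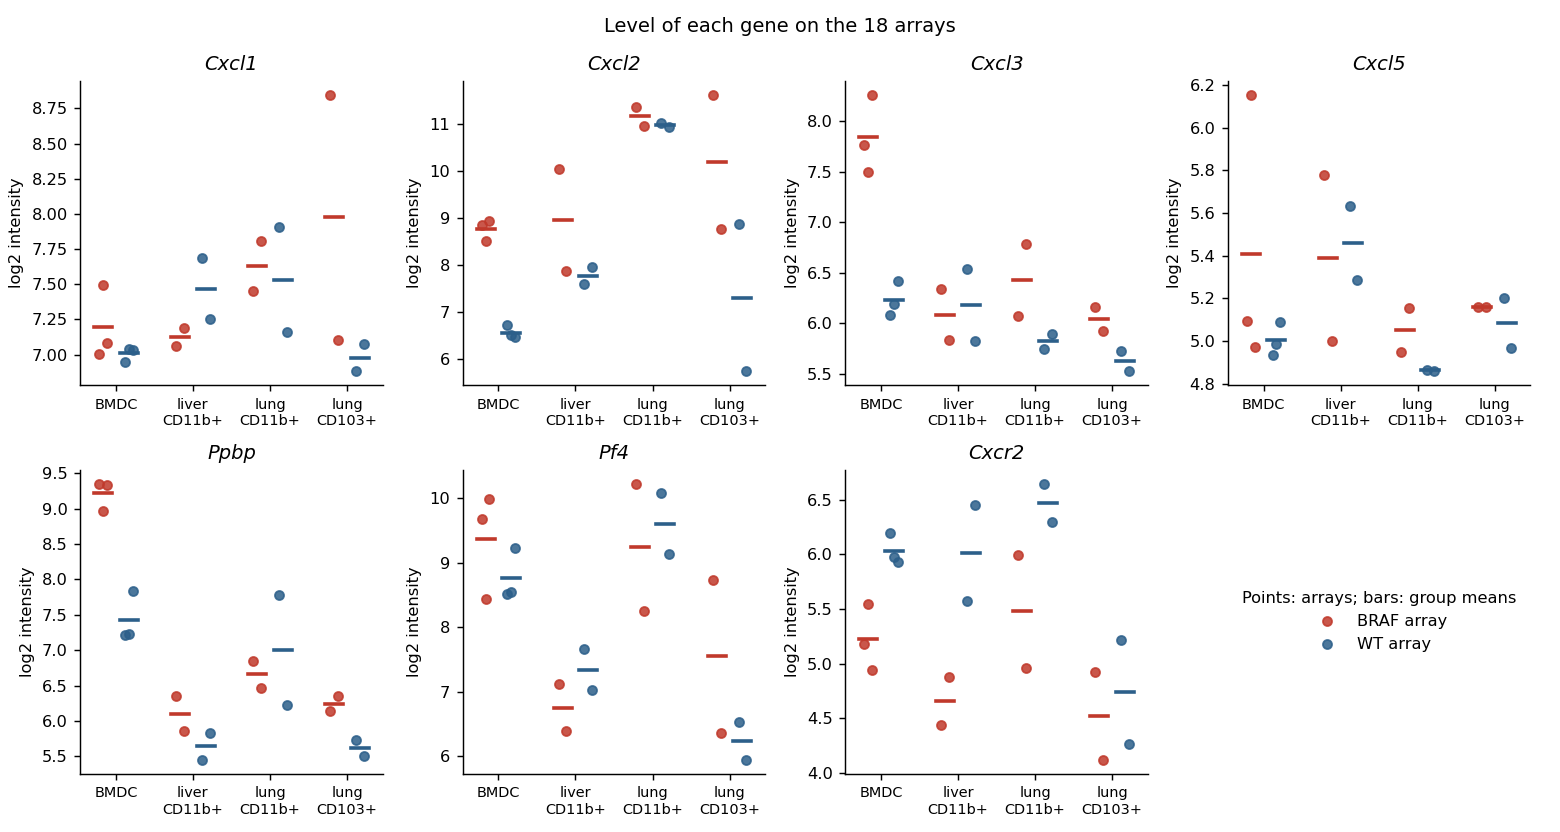
Log2 intensity (vertical axes, each with its own range) of the 7 genes by population, with BRAF arrays (red) left of WT arrays (blue); points are arrays and bars are group means. Cxcl2, Cxcl3 and Ppbp separate the genotypes in BMDC, Cxcl2 is at 10.93 or above on all 4 lung CD11b+ arrays, and Cxcr2 is lower in BRAF in all populations by mean.

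Cxcr2, the G-protein-coupled receptor of the ELR chemokines, was lower by mean in BRAF than in WT cells in 4 of 4 populations, as were 5.66% of all genes tested. In BMDC it had 5.18, 5.55 and 4.94 in BRAF cells and 6.20, 5.98 and 5.93 in WT cells. The genotypes did not overlap, as for 9.08% of all genes in that direction, and the log2 difference was -0.81 ± 0.33 (SE, limma, adjusted p = 0.670).

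In liver CD11b+ cells Cxcr2 had 4.44 and 4.87 in BRAF (replicates 2 and 3) and 6.45 and 5.58 in WT (replicates 1 and 3), a log2 difference of -1.36 ± 0.41 (SE, limma, adjusted p = 0.194). In lung CD11b+ cells it had 5.99 and 4.96 in BRAF (replicates 1 and 2) and 6.29 and 6.65 in WT (replicates 1 and 3), a difference of -0.99 ± 0.41 (SE, limma, adjusted p = 0.585). Neither pair of groups overlapped, as for 15.8% of all genes in liver and 24.8% in lung CD11b+ cells in that direction. In lung CD103+ cells Cxcr2 had 4.93 and 4.12 in BRAF and 5.22 and 4.26 in WT, and the groups overlapped, with a difference of -0.22 ± 0.41 (SE, limma, adjusted p = 1).

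Cxcr2 was dim, so its differences are bounded by the low end of the arrays: it exceeded the dim-gene threshold on 1 of 9 BRAF and 6 of 9 WT arrays. Ppbp did so on 9 BRAF and 6 WT arrays, and Cxcl3 on 9 and 7. The summed neutrophil markers were higher on every BRAF array than on every WT array of the same population, the opposite order to that of Cxcr2 in BMDC, liver and lung CD11b+ cells. In BMDC this held for the sum alone. The mean log2 level of the list there was 6.61, 6.88 and 6.62 in BRAF and 6.58, 6.60 and 6.84 in WT. Ngp, a neutrophil granule protein on the list, fell in BMDC by 1.59 ± 0.27 (SE, limma, adjusted p = 0.0120). In the mean over populations, 15 of the 18 tested markers on the list were positive and 3 negative. Of these Mmp8 alone was called, against 0.989% of all genes, and was higher by 2.27 ± 0.36 (SE, limma, adjusted p = 0.00789). The part of neutrophil RNA in the chemokine and receptor values was not tested. In sorted populations, fewer cells of a type and less RNA per cell cannot be told apart.

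**Figure D2:**
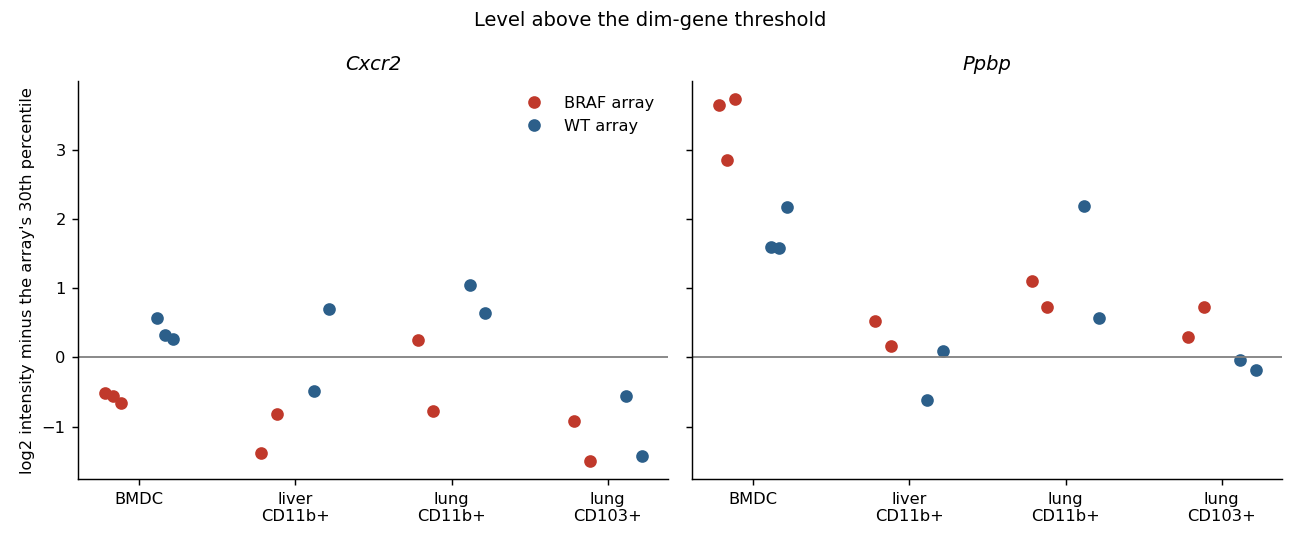
Log2 intensity of Cxcr2 (left) and Ppbp (right) minus the 30th percentile of the same array, by population, with BRAF arrays (red) left of WT arrays (blue); the line at 0 is the dim-gene threshold. Cxcr2 exceeds it on 1 of 9 BRAF and 6 of 9 WT arrays, and Ppbp on 9 of 9 BRAF and 6 of 9 WT arrays.

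In liver CD11b+ cells 0 of 6 members were called (0.215% of all genes were; 2170 genes had an unadjusted p under 0.05). Cxcl2 had 10.02 and 7.86 in BRAF liver (replicates 2 and 3) and 7.94 and 7.58 in WT liver (replicates 1 and 3). BRAF replicate 2 was high and replicate 3 lay within the WT range, and the log2 difference was 1.18 ± 0.90 (SE, limma, adjusted p = 0.535), and 0.095 without BRAF replicate 2. The neutrophil markers had the other order: their sum was 3105 on BRAF replicate 2 and 16092 on replicate 3.

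Ppbp had 6.36 and 5.85 in BRAF liver and 5.84 and 5.45 in WT liver, a difference of 0.46 ± 0.39 (SE, limma, adjusted p = 0.575). The groups just failed to overlap, as for 22.7% of all genes in that direction. Cxcl1 had 7.06 and 7.19 in BRAF liver and 7.25 and 7.69 in WT liver, a difference of -0.34 ± 0.41 (SE, limma, adjusted p = 0.687). Both BRAF arrays lay below both WT arrays, as for 15.8% of all genes. Pf4 had 7.12 and 6.38 in BRAF liver against 7.02 and 7.67 in WT liver, and Cxcl3 6.33 and 5.83 against 5.83 and 6.54. Both overlapped, with log2 differences of -0.59 ± 0.73 for Pf4 and -0.10 ± 0.31 for Cxcl3 (SE, limma, adjusted p = 0.698 and 0.883); the Cxcl3 sign turned under quantile normalization, without WT liver replicate 3 and without BRAF liver replicate 3.

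In lung CD11b+ cells 0 of 6 members were called (0.338% of all genes were; 1031 had an unadjusted p under 0.05). Cxcl2 was near the top of its range in both genotypes, with 11.36 and 10.95 in BRAF (replicates 1 and 2) and 10.93 and 11.01 in WT (replicates 1 and 3). The groups overlapped and the difference was 0.18 ± 0.90 (SE, limma, adjusted p = 1). Cxcl3 had 6.07 and 6.78 in BRAF and 5.89 and 5.75 in WT lung CD11b+ cells, a difference of 0.61 ± 0.31 (SE, limma, adjusted p = 0.805). Both BRAF arrays stood above both WT arrays, as for 21.6% of all genes.

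Cxcl1 had 7.45 and 7.81 in BRAF lung CD11b+ cells, inside the WT values of 7.16 and 7.91. Ppbp had 6.84 and 6.47 in BRAF, also inside the WT values of 6.23 and 7.78. Pf4 had 10.23 and 8.24 in BRAF and 9.13 and 10.08 in WT. The Cxcl1, Ppbp and Pf4 differences were 0.10 ± 0.41, -0.35 ± 0.39 and -0.37 ± 0.73 (SE, limma, adjusted p = 1 for each), and the sign of each turned when 1 lung CD11b+ array was left out. The sum of 21 macrophage markers moved with Pf4 within each genotype, at 58166 and 28046 on BRAF replicates 1 and 2 and 30781 and 41351 on WT replicates 1 and 3; its part in the Pf4 values was not tested.

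In lung CD103+ cells 0 of 6 members were called (0.0846% of all genes were; 655 had an unadjusted p under 0.05). Cxcl2 had 11.61 and 8.76 in BRAF (replicates 1 and 2) and 8.86 and 5.73 in WT (replicates 1 and 3). The arrays of each genotype lay far apart, and the lower BRAF array fell just below the higher WT array. The log2 difference was 2.89 ± 0.90 (SE, limma, adjusted p = 0.442), and 4.45 (adjusted p = 0.0326) without WT replicate 1. It was far smaller when the lowest WT array (replicate 3) was left out, at 1.33, or the highest BRAF array (replicate 1), at 1.47 (limma, adjusted p = 1 for both).

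Cxcl1 had 8.85 and 7.11 in BRAF and 6.88 and 7.07 in WT lung CD103+ cells. BRAF replicate 1 stood far above the other 3 arrays, and replicate 2 barely exceeded the WT values; a BRAF group wholly above WT was seen for 9.16% of all genes. The difference was 1.00 ± 0.41 (SE, limma, adjusted p = 0.967), 1.87 (adjusted p = 0.0211) without BRAF replicate 2 and 0.13 (adjusted p = 1) without BRAF replicate 1. Pf4 had 8.73 and 6.37 in BRAF and 6.53 and 5.94 in WT, with the same array highest and a difference of 1.31 ± 0.73 (SE, limma, adjusted p = 1), and leaving out that array took it to 0.13, while leaving out the other BRAF array took it to 2.50.

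Cxcl1, Cxcl2 and Pf4 were thus all highest on BRAF CD103+ replicate 1. On that array macrophage markers summed to 30489 and lung epithelium markers to 11392, against 10872 and 4638 on BRAF replicate 2, 9405 and 6251 on WT replicate 1, and 5744 and 3377 on WT replicate 3. Neutrophil, monocyte and hepatocyte markers were highest on it too, with sums of 7257, 13755 and 6053, against 2809, 8786 and 2263 on BRAF replicate 2, 2214, 4757 and 2789 on WT replicate 1, and 1047, 4272 and 4124 on WT replicate 3. The part of any of these in the chemokine values was not tested. Cxcl3 had 6.17 and 5.92 in BRAF and 5.73 and 5.53 in WT, and Ppbp 6.14 and 6.35 in BRAF and 5.73 and 5.51 in WT. Both were wholly higher in BRAF, as were 9.16% of all genes, by 0.42 ± 0.31 and 0.63 ± 0.39 (SE, limma, adjusted p = 1 for each). On both WT arrays both genes lay under the dim-gene threshold.

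**Figure D3:**
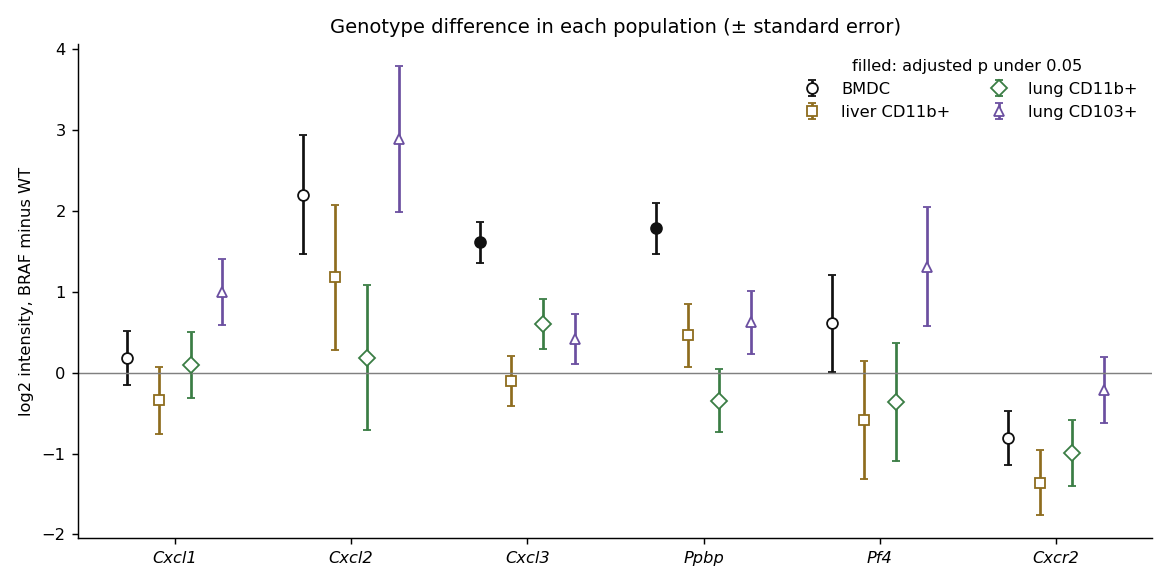
Difference in log2 intensity, BRAF minus WT, for each tested gene (horizontal axis) in the 4 populations (symbols), with standard errors from the limma fit; filled symbols passed an adjusted p of 0.05. Only Cxcl3 (1.61) and Ppbp (1.79) in BMDC are filled, Cxcl2 is above 0 and Cxcr2 below 0 in all 4 populations.

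Averaged over the 4 populations with equal weight, 0 of 6 members passed, against 0.989% of all genes (1439 had an unadjusted p under 0.05). Cxcr2 and Cxcl3 came nearest. The mean log2 difference was -0.85 ± 0.19 for Cxcr2 (SE, limma, adjusted p = 0.0558) and 0.63 ± 0.15 for Cxcl3 (adjusted p = 0.0594). Both passed under quantile normalization, with limma's adjusted p at 0.0437 for Cxcr2 and 0.0166 for Cxcl3, a setting that also called more of all genes. Over the 18 arrays left out in turn the mean difference spanned -0.97 to -0.72 for Cxcr2 and 0.54 to 0.72 for Cxcl3. Cxcl2 had a mean difference of 1.61 ± 0.43 (SE, limma, adjusted p = 0.108), higher in BRAF in 4 of 4 populations as were 4.99% of all genes, and passed without WT CD103+ replicate 1 (2.00, adjusted p = 0.0146), BRAF CD103+ replicate 2 (1.97, adjusted p = 0.0196) or BRAF liver replicate 3 (1.89, adjusted p = 0.0460). Over the 18 arrays left out in turn it spanned 1.22 to 2.00, and 3 fits called it. Ppbp had 0.63 ± 0.19 (SE, limma, adjusted p = 0.157), and passed without WT lung CD11b+ replicate 3 (0.83, adjusted p = 0.0194), 1 of 18 such fits, which spanned 0.44 to 0.83. Cxcl1 and Pf4 averaged 0.23 ± 0.20 and 0.24 ± 0.35 (SE, limma, adjusted p = 0.890 and 0.979).

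Whether the genotype difference itself varied between populations was tested directly, since a call in BMDC alone does not show it. By limma's moderated F test 0 of 6 members passed (0.124% of all genes did), with adjusted p of 0.308 for Cxcl3 and 0.328 for Ppbp as the smallest. The Cxcl3 difference in BMDC exceeded that in liver by 1.71 ± 0.40 (SE, limma, adjusted p = 0.126; 0.137% of all genes passed). The Ppbp difference in BMDC exceeded that in lung CD11b+ cells by 2.13 ± 0.50 (SE, limma, adjusted p = 0.181; 0.13% passed). Without BRAF liver replicate 2 the Cxcl3 value was 1.96 (adjusted p = 0.0335), and without WT lung CD11b+ replicate 1 the Ppbp value was 2.91 (adjusted p = 0.0273). Over all 18 arrays left out in turn the Cxcl3 value spanned 1.36 to 2.07 and the Ppbp value 1.36 to 2.91, with the lowest Ppbp value (limma, adjusted p = 0.600) without WT lung CD11b+ replicate 3.

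The populations were also compared with both genotypes averaged. Cxcl2 and Pf4 were lower in lung CD103+ than in lung CD11b+ cells, Cxcr2 was too, and Cxcl2 and Pf4 were lower in liver than in lung CD11b+ cells. BMDC had more Cxcl3, Ppbp and Pf4 and less Cxcl2 than the mean of the organ populations. These contrasts use the same arrays as the genotype contrasts, and the values within each genotype, given below without a test, differed in size. The share of all genes whose arrays did not overlap between populations was not counted, so the separations below are a description.

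Between lung CD103+ and lung CD11b+ cells 3 of 6 members were called, all lower in CD103+ cells, against 5.64% of all genes (3.13% lower). Pf4 fell by 2.53 ± 0.52 on the log2 scale (SE, limma, adjusted p = 0.00682), with 5.94 to 8.73 on the 4 CD103+ arrays and 8.24 to 10.23 on the 4 CD11b+ arrays. Cxcr2 fell by 1.34 ± 0.29 (SE, limma, adjusted p = 0.00917), with 4.12 to 5.22 against 4.96 to 6.65. It exceeded the dim-gene threshold on 0 BRAF and 0 WT CD103+ arrays, and on 1 of 2 BRAF and 2 of 2 WT lung CD11b+ arrays. The size of its fall is thus bounded by the low end of the arrays. Cxcl2 fell by 2.32 ± 0.63 (SE, limma, adjusted p = 0.0436), with 5.73 to 11.61 against 10.93 to 11.36. Within genotypes the log2 differences in BRAF and in WT were -1.69 and -3.37 for Pf4, -0.96 and -1.73 for Cxcr2, and -0.97 and -3.67 for Cxcl2. The WT populations overlapped in none of the 3 genes, while the BRAF populations overlapped in Pf4 and Cxcl2, where BRAF CD103+ replicate 1 (11.61) exceeded every CD11b+ array. The spread of the CD103+ arrays in Cxcl2 was thus far wider than that of the CD11b+ arrays, and its call held in 5 of 18 fits that left out 1 array (BRAF BMDC replicate 2, BRAF liver replicate 2 or 3, BRAF CD103+ replicate 1 or WT CD103+ replicate 1). Limma's adjusted p reached 0.240 without BRAF CD103+ replicate 2 and 0.210 without WT CD103+ replicate 3, and was 0.0577 under quantile normalization.

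The Cxcr2 call was lost without WT lung CD11b+ replicate 3, BRAF lung CD11b+ replicate 1, WT CD103+ replicate 3 or BRAF CD103+ replicate 2, with limma's adjusted p between 0.0509 and 0.0623. The Pf4 call held whichever array was left out, with adjusted p up to 0.0423. Ppbp was 0.90 ± 0.28 lower in CD103+ cells by value (log2 difference -0.90, SE, limma, adjusted p = 0.0784) and passed without WT lung CD11b+ replicate 1 (-1.29, adjusted p = 0.00331), while without WT lung CD11b+ replicate 3 it was -0.51 (adjusted p = 0.367). Cxcl1 and Cxcl3 differed by -0.11 ± 0.29 and -0.29 ± 0.22 (SE, limma, adjusted p = 0.984 and 0.762).

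Between liver and lung CD11b+ cells 2 of 6 members were called, both lower in liver, against 2.12% of all genes (1.91% lower). Cxcl2 fell by 2.71 ± 0.63 (SE, limma, adjusted p = 0.0402), with 7.58 to 10.02 on the liver arrays and 10.93 to 11.36 on the lung arrays. Pf4 fell by 2.37 ± 0.52 (SE, limma, adjusted p = 0.0283), with 6.38 to 7.67 against 8.24 to 10.23. Liver and lung arrays did not overlap in either gene, and the differences in BRAF and in WT were -2.21 and -3.21 for Cxcl2 and -2.48 and -2.26 for Pf4. Both calls were near the threshold: the Cxcl2 call held in 7 of 18 fits that left out 1 array (any CD103+ array, WT liver replicate 1, BRAF liver replicate 2 or BRAF BMDC replicate 2), with adjusted p up to 0.156 in the others and 0.0667 under quantile normalization. The Pf4 call was lost without WT liver replicate 3, BRAF liver replicate 3, WT lung CD11b+ replicate 1 or 3, or BRAF lung CD11b+ replicate 1 (up to 0.113).

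BMDC were set against the mean of the 3 organ populations, a contrast in which culture, age and gate cannot be told apart; 4 of 6 members were called, against 18.8% of all genes (11.6% higher and 7.11% lower). Ppbp was higher in BMDC by 2.11 ± 0.19 (SE, limma, adjusted p = 2.19e-06) and Cxcl3 by 1.00 ± 0.15 (adjusted p = 0.000273). The gap was 2.88 in BRAF and 1.34 in WT for Ppbp, and 1.66 in BRAF and 0.35 in WT for Cxcl3. Every BRAF BMDC array exceeded every BRAF organ array in both genes. WT BMDC, with Ppbp at 7.22 to 7.84, stood above WT liver (5.45 to 5.84) and WT CD103+ cells (5.51 to 5.73) but overlapped with WT lung CD11b+ cells (6.23 and 7.78), and for Cxcl3 WT BMDC (6.08 to 6.42) overlapped with WT liver (5.83 and 6.54). Pf4 was higher by 1.28 ± 0.37 (SE, limma, adjusted p = 0.0220), a call lost without WT BMDC replicate 3, BRAF BMDC replicate 1 or BRAF BMDC replicate 3 (adjusted p up to 0.0704). Cxcl2 fell by 1.73 ± 0.45 (SE, limma, adjusted p = 0.0128). Cxcl1 differed by -0.35 ± 0.21 (SE, limma, adjusted p = 0.293) and passed without BRAF CD103+ replicate 2 (-0.50, adjusted p = 0.0204), while without BRAF CD103+ replicate 1 it was -0.21 (adjusted p = 0.388); Cxcr2 differed by 0.32 ± 0.20 (adjusted p = 0.355).

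Ordered by group mean, each gene had its own profile. Ppbp was highest in BRAF BMDC (9.22 ± 0.22, SD, n = 3), next in WT BMDC (7.43 ± 0.35, n = 3), and these neighbours did not overlap, while WT BMDC overlapped with WT lung CD11b+ cells. Cxcl3 was highest in BRAF BMDC (7.84 ± 0.39, SD, n = 3), clear of the next group, BRAF lung CD11b+ cells (6.43 ± 0.50, n = 2). From there down to BRAF CD103+ cells neighbouring groups overlapped for Cxcl3. Cxcl2 was highest in BRAF and WT lung CD11b+ cells (11.16 ± 0.29 and 10.97 ± 0.05, SD, n = 2 each), which overlapped, and lowest in WT BMDC (6.55 ± 0.13, n = 3). Pf4 was highest in WT lung CD11b+ cells (9.60 ± 0.67, SD, n = 2) and lowest in WT CD103+ cells (6.24 ± 0.42, n = 2), and all neighbours in its order overlapped. Cxcr2 was highest in WT lung CD11b+ cells (6.47 ± 0.25, SD, n = 2) and lowest in BRAF CD103+ cells (4.52 ± 0.57, n = 2). Cxcl1 spanned only 6.88 to 8.85 over the 18 arrays, against 5.73 to 11.61 for Cxcl2.

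Over the 18 arrays, which share groups and scaling, Cxcl3 and Ppbp had the highest correlation of the 15 pairs of tested members (Pearson r = 0.8, given as a description). Ppbp and Pf4 had 0.69, Cxcl1 and Cxcl2 0.58, and Pf4 and Cxcr2 0.55. Cxcl2 and Cxcl3 had 0.05.

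**Figure D4:**
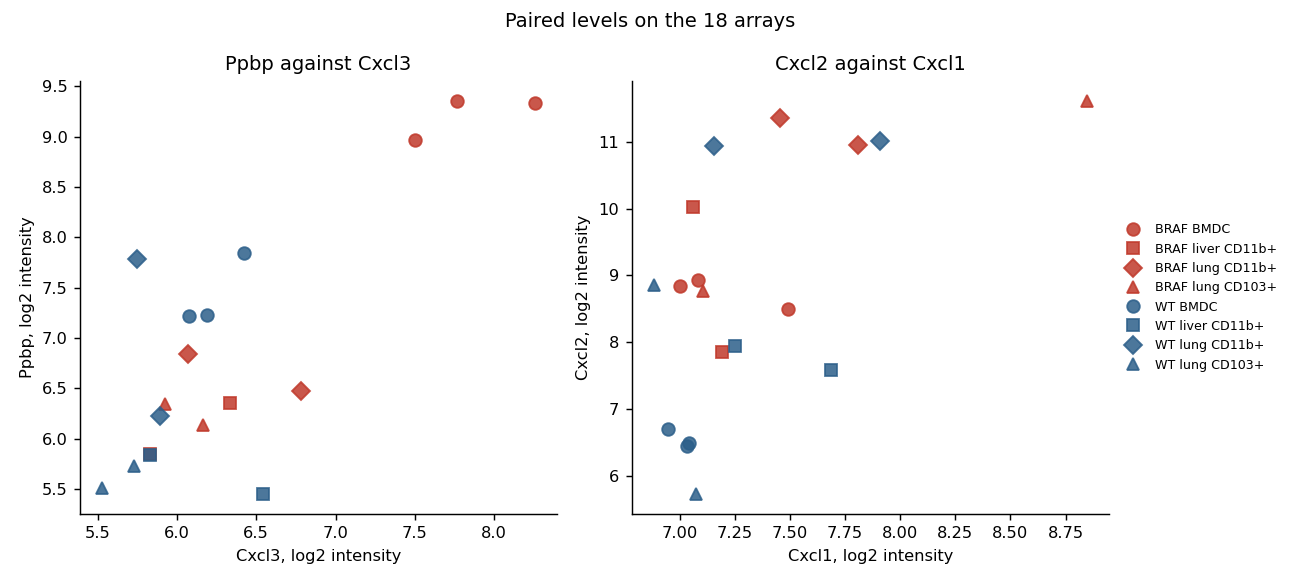
Log2 intensity of Ppbp against Cxcl3 (left) and of Cxcl2 against Cxcl1 (right) on the 18 arrays; red is BRAF, blue is WT, and the symbol gives the population. The 3 BRAF BMDC arrays lie apart at the top right of the left panel (Cxcl3 at 7.50 or above, Ppbp at 8.96 or above), while the lung arrays spread over the right panel.

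The genes whose values were most like those of each member were named by the same correlation over 18 arrays among all tested genes. For Cxcl3 they were Serpinb2, a plasminogen activator inhibitor (r = 0.933), Arg1, which encodes arginase (0.918), and Tmem171 (0.908). For Ppbp they were Vegfa, an angiogenic growth factor (0.913), Osbpl8 (0.89) and Copz2 (0.887). Pf4 was most like Pmp22 (0.92), Igf1, a growth factor (0.875), and Dagla (0.855). Cxcl2 was most like Tcp11l2 (0.85), Bank1 (0.849) and Ssh2 (0.841), and Cxcl1 like Scgb3a1 (0.838), Sftpb, a surfactant protein of lung epithelium (0.834), and Ccl8 (0.817). Cxcr2 was most like Tnfrsf12a (0.84), Pde2a (0.787) and Dexi (0.778).

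Genes that act before and after these chemokines were counted in lists. Of 26 tested NF-kB and IL-1 pathway genes, 0 were called in BMDC, against 0.521% of all genes. There 7 differences were positive and 19 negative, with a median of -0.35 against 0.003 over all genes (1022 of which had an unadjusted p under 0.05). In lung CD11b+ cells 4 were positive and 22 negative, with a median of -0.41 against 0.003. In the mean over the 4 populations 2 of the 26 passed, both lower, against 0.989% of all genes. Rel and Relb, NF-kB subunits, fell by 0.60 ± 0.12 and 0.54 ± 0.12 (SE, limma, adjusted p = 0.0239 and 0.0386). In BMDC 5 of the 6 tested chemokine and receptor genes were positive, of which Cxcl1 and Pf4 overlapped between genotypes. A link between them and this list was not tested.

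Of 13 AU-rich decay and stability genes, 0 were called in any population, where 0.0846% to 0.521% of all genes were. All 13 were negative in BMDC (median -0.41), and in lung CD11b+ cells 12 were (median -0.56). Elavl1, which encodes HuR, a protein that stabilises AU-rich mRNAs, had the smallest p of them in BMDC, with a difference of -0.73 ± 0.33 (SE, limma, adjusted p = 0.725). Of 20 tested genes that carry the CXCR2 signal, such as G proteins, arrestins and Rac2, 0 were called in any population, beside the same shares of all genes. In BMDC 17 were negative (median -0.34). On narrow-range BRAF BMDC replicate 2, conventional dendritic cell markers, a bright list, averaged 8.46, against 9.04 and 9.12 on replicates 1 and 3. Dim lymphocyte markers averaged 5.87, against 5.13 and 5.03. The log2 interquartile range was 2.66 and 2.64 on BRAF and 2.81 and 2.96 on WT lung CD11b+ arrays. The part of array contrast in the signs of the NF-kB, AU-rich and CXCR2 lists was not tested. Of 20 ERK targets and feedback genes, 2 were called in BMDC, both higher, against 0.521% of all genes (0.332% higher). Of the 20, 17 were positive, with a median of 0.46. Etv1, an ETS transcription factor, was higher by 1.68 ± 0.31, and Fosl1, an AP-1 subunit, by 0.91 ± 0.18 (SE, limma, adjusted p = 0.0230 and 0.0334).

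**Figure D5:**
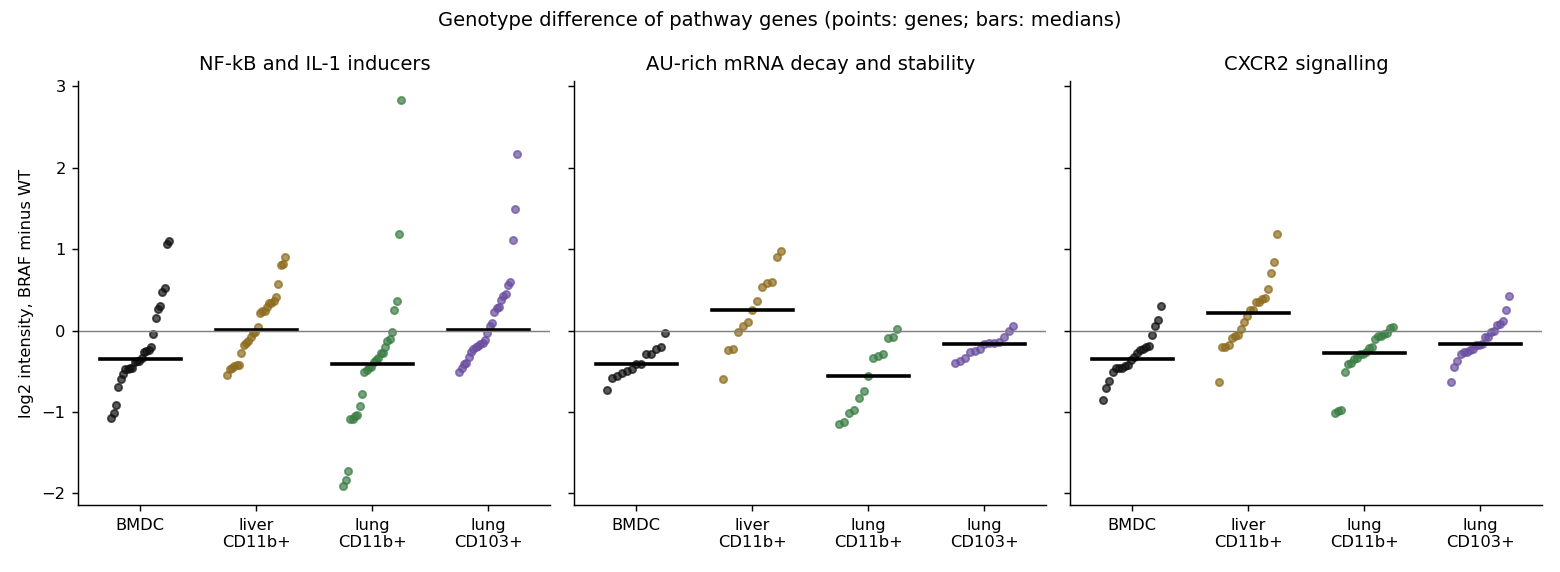
Difference in log2 intensity, BRAF minus WT (vertical axis), of the tested genes of 3 lists (panels) in the 4 populations; points are genes in order of value and bars are list medians. In BMDC all 13 AU-rich decay genes lie below 0, as do 19 of 26 NF-kB and IL-1 genes and 17 of 20 CXCR2 signalling genes; none passed the test in a single population.

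The kB letters stood in the start window of 58 tested genes. In BMDC 1 of them was called, Cxcl3 itself, and 0 of the 55 that are not members were, against 0.521% of all genes. The median log2 difference was 0.064 for the 55 against 0.003 over all genes. Of the 24 tested neighbours of the chemokine cluster on chromosome 5, 0 were called in any population, where 0.0846% to 0.521% of all genes were. Their medians were 0.08 in BMDC and 0.31 in liver. In liver 22.7% of all genes stood wholly higher in BRAF and 15.8% wholly lower, so a positive median is not shown to be particular to the neighbours. Among them Cxcl10, a T cell attractant that acts through Cxcr3, differed by 1.29 ± 0.34 in BMDC and by -1.48 ± 0.41 in liver (SE, limma, adjusted p = 0.171 for each).

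Of 12 other tested CXC chemokines and receptors, 1 was called in BMDC, against 0.521% of all genes. Cxcl16, the membrane-bound ligand of Cxcr6, fell to 7.94 ± 0.58 in BRAF, against 9.78 ± 0.13 in WT (SD, n = 3 each, with a log2 difference of -1.83 ± 0.30, SE, limma, adjusted p = 0.0108). This was the opposite direction to Cxcl3 and Ppbp in the same cells. In the mean over populations, where 0.989% of all genes were called, Cxcl16 fell by 0.95 ± 0.18 and Cxcl14 was higher by 0.84 ± 0.12 (SE, limma, adjusted p = 0.0190 and 0.00407). Of 16 other neutrophil attractants and regulators tested, 1 was called in lung CD103+ cells, against 0.0846% of all genes. It was Ccl9, a CC chemokine, at 10.41 ± 0.89 in BRAF and 7.45 ± 0.39 in WT (SD, n = 2 each, with a log2 difference of 2.95 ± 0.35, SE, limma, adjusted p = 0.00484). In liver 1 was called, against 0.215% of all genes. Lcn2, a neutrophil granule protein also made by other cells, was higher there by 3.56 ± 0.65 (SE, limma, adjusted p = 0.0453).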

How the data were processed

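The authors deposited linear array intensity, 1 column per array, with array medians of 93.7 to 113.2; their own normalization is not given in the labels and sources used here. Log2 was taken with no constant added, and arrays were not normalized again. Of 24922 probe sets, 21425 had 1 gene symbol in the platform table, 1399 had several and 2098 were unnamed; Entrez numbers of 21347 matched the RefSeq gene table and 0 symbols changed. Per gene the probe set of highest mean was used.

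Group means over all 18 arrays came from limma 3.58.1 under R 4.3.3 (10 residual and 4.8 prior degrees of freedom), with Benjamini-Hochberg adjustment over 15365 genes and calls under 0.05. Signs are BRAF minus WT. The fit was tested on simulated data with 1 spread per gene over all arrays. That test thus does not cover spreads that differ between BMDC and organ populations, as for Cxcl2. Python 3.11.15 with pandas 2.3.3, matplotlib 3.10.9 and Biopython 1.88 made tables, figures and the alignment of windows. The number of arrays limits the precision.

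The members and the 18 gene lists (313 entries, 291 matched) were chosen with earlier results of these data known. Named genes were all members; per list and genotype contrast up to 4 called genes, or else the gene with the smallest p; and the 3 genes most correlated with each member. The text gives a selection of these. Alternatives were quantile normalization, median centring, other filters, array weights, the mean of probe sets, eBayes with a trend and robust, fits of the groups compared alone, replicate blocks, leaving out each array, and leaving out the 2 arrays of narrow range.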

Additional observations from a re-analysis of the deposited data

How the results depend on the processing

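Outside the fits that left out 1 array, 708 of 741 values for single genes kept their direction and side of the threshold, 16 came to pass, 8 no longer passed and 9 turned sign. The cause was not tested unless fewer arrays entered. Signs turned under quantile normalization for Cxcl3 in liver (0.034) and in liver minus lung CD11b+ (-0.12) and for the liver minus CD103+ difference of Ppbp (0.065); under median centring for Cxcl3 in liver minus lung CD11b+ (-0.060); with array weights for the BMDC minus lung CD11b+ difference of Cxcl1 (-0.073); and without the 2 narrow arrays for Cxcl3 in liver (0.25) and in liver minus lung CD11b+ (-0.17), for that Cxcl1 difference (-0.062) and for the liver minus lung CD11b+ difference of Pf4 (0.10).

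Among chemokine and receptor genes, 5 were called in BMDC with array weights, where Cxcr2 reached -0.92 (limma, adjusted p = 0.00222) and 10.8% of all genes were called, against 0.521% with equal weights. In the mean effect 2 were called under quantile normalization, trend and robust eBayes, array weights and without the narrow arrays. The main fit called 0.989% of all genes there. Quantile normalization and leaving out the narrow arrays called more of all genes, as counted in the next paragraph. With array weights the F test called 2, Cxcl3 and Ppbp (limma, adjusted p = 0.0274 and 0.0320), and the BMDC minus lung CD11b+ difference 1. In these 2 comparisons the main fit called 0.124% and 0.13% of all genes, and array weights called more, as counted in the next paragraph. In liver minus lung CD11b+, where the main fit called 2.12% of all genes, 1 was called under quantile normalization, with array weights and without the narrow arrays. Cxcl3 in BMDC had limma's adjusted p at 0.0503 in the fit of only BMDC arrays.

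Counts of all genes called moved as follows. Under quantile normalization liver had 59, the mean effect 270, and the differences BMDC minus liver 52, BMDC minus lung CD11b+ 11 and liver minus CD103+ 8. Median centring gave 7 for BMDC minus lung CD11b+ and 11 for the F test. The mean of probe sets gave 18 in liver. Trend and robust eBayes gave 23 in CD103+ cells and 2 for lung CD11b+ minus CD103+. Array weights gave 1656 in BMDC, 1 in liver, 369 in lung CD11b+, 13 for BMDC minus liver, 381 for BMDC minus lung CD11b+, 66 for BMDC minus CD103+, 3 for lung CD11b+ minus CD103+, 249 for the F test and 6461 for BMDC minus organs. Fits of only the groups compared gave 44 in BMDC, 7 in liver and 0 in CD103+ cells. Without the 2 narrow arrays there were 149 in lung CD11b+, 21 in CD103+, 324 in the mean effect, 55, 42 and 16 for BMDC minus liver, lung CD11b+ and CD103+, 5 and 6 for liver minus lung CD11b+ and CD103+, 36 for the F test, 1357 for CD103+ minus lung CD11b+ and 4341 for BMDC minus organs.

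Whether arrays with the same replicate number were paired could not be decided. After subtracting group means, BRAF and WT BMDC arrays of equal number correlated at 0.469, -0.231 and -0.399. What is left within a group cancels out, so these values are not independent and do not exclude pairing. With the replicate block BMDC had 52 genes called and 2 members, Ppbp with limma's adjusted p at 0.0346. Between the lung populations the same correlation was 0.22 in BRAF and 0.159 in WT. With 2 arrays per group both replicate numbers must give the same value, so pairing was not decided there either. The replicate block in lung moved no call of a member.

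Leaving out each array in turn, the genes called spanned 20 to 103 in BMDC, 7 to 358 in liver, 7 to 97 in lung CD11b+, 3 to 96 in CD103+, 67 to 280 in the mean effect, 5 to 88 in the F test, 81 to 1220 in liver minus lung CD11b+, and for the differences 12 to 419 (BMDC minus liver), 2 to 46 (BMDC minus lung CD11b+), 4 to 49 (BMDC minus CD103+), 0 to 29 (liver minus lung CD11b+), 0 to 180 (liver minus CD103+) and 0 to 22 (lung CD11b+ minus CD103+). Members called spanned 0 to 2 in BMDC and the mean effect, 0 to 1 in CD103+ cells and in the differences BMDC minus liver and BMDC minus lung CD11b+, 0 to 3 in liver minus lung CD11b+ and 1 to 3 in CD103+ minus lung CD11b+.

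Signs turned over these fits for Cxcl3 in liver (-0.46 to 0.25); in lung CD11b+ cells for Cxcl1 (-0.28 to 0.47), Cxcl2 (-0.020 to 0.39), Ppbp (-1.13 to 0.43) and Pf4 (-1.36 to 0.62); for Cxcr2 in CD103+ cells (-0.70 to 0.26); and for Pf4 in the mean effect (-0.054 to 0.54). They turned for Cxcl3 in liver minus lung CD11b+ (-0.17 to 0.19) and Cxcl1 in CD103+ minus lung CD11b+ (-0.54 to 0.33). Among differences of the genotype effect they turned in liver minus lung CD11b+ for Cxcl2 (-0.089 to 2.08), Pf4 (-1.21 to 0.77) and Cxcr2 (-0.88 to 0.15), in liver minus CD103+ for Ppbp (-0.42 to 0.086), in lung CD11b+ minus CD103+ for Cxcl3 (-0.17 to 0.54), in BMDC minus liver for Cxcl2 (-0.059 to 2.11), in BMDC minus lung CD11b+ for Cxcl1 (-0.29 to 0.46), Pf4 (-0.015 to 1.97) and Cxcr2 (-0.33 to 0.70), and in BMDC minus CD103+ for Cxcl1 (-1.68 to 0.057), Cxcl2 (-2.25 to 0.87) and Pf4 (-1.89 to 0.48). Where 1 array was left in a group, it was assumed to vary like the other groups.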

Other observations

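Among the NF-kB and IL-1 genes, Il1a, an early inducer of neutrophil chemokines, was singled out after its values were seen. Its log2 difference, BRAF minus WT, was 2.83 ± 0.76 for CD11b+ and 2.17 ± 0.76 for CD103+ cells of the lung, 1.10 ± 0.62 in BMDC and -0.43 ± 0.76 in liver (SE, limma, adjusted p = 0.179, 0.613, 0.737 and 0.788), with a mean of 1.42 ± 0.36 (adjusted p = 0.0903). Il1b, singled out with it, differed by -0.38 ± 0.58, 0.42 ± 0.58, -0.38 ± 0.48 and -0.47 ± 0.58 in the same order (SE, limma, adjusted p = 1, 1, 0.775 and 0.700).

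Cxcl9, which attracts T cells through Cxcr3 and lies on chromosome 5 too, averaged 11.62 ± 0.40 in BRAF and 9.32 ± 1.00 in WT lung CD11b+ cells, and 11.59 ± 0.08 in BRAF and 8.93 ± 1.06 in WT lung CD103+ cells (SD, n = 2 each). The log2 differences were 2.30 ± 0.63 and 2.66 ± 0.63 (SE, limma, adjusted p = 0.190 and 0.193), and in liver -1.69 ± 0.63 (adjusted p = 0.279).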
